A study of Mus musculus with 45 samples.

Results

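Scavenger receptors and the receptors and ligands of efferocytosis, the clearance of dead cells, were examined in bone marrow-derived macrophages by RNA sequencing. The set was a list of 10 genes taken by symbol: the scavenger receptors Msr1, Marco, Scarb1, Cd36, Cd68 and Stab1, the receptor kinases Mertk and Axl, and the ligands Gas6 (of both kinases) and Pros1 (of Mertk). All 10 were found among the 29307 genes of the count table, and all 10 were among the 12905 genes that passed the filter on low counts and were tested. In mm10 coordinates of GENCODE vM21, the protein-coding scavenger receptor genes lie with Msr1 at chr8:39581685-39642673, Marco at chr1:120474538-120505024, Scarb1 at chr5:125277087-125341094, Cd36 at chr5:17781690-17888801, Cd68 at chr11:69664213-69666153 and Stab1 at chr14:31139013-31168641, all on the minus strand. The kinase and ligand genes lie with Mertk at chr2:128698956-128802894 and Pros1 at chr16:62854307-62929346 on the plus strand and Axl at chr7:25757273-25788705 and Gas6 at chr8:13465374-13494490 on the minus strand.

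The macrophages came from C57BL/6N mice of 6 to 10 weeks that had been engineered to carry a human variant of FAMIN, a purine enzyme encoded by Lacc1: Famin p.254I (the non-risk variant), Famin p.254V (a common risk variant) or Famin p.284R (a monogenic disease variant). There were 5 mice of each genotype, and no group of unengineered mice is part of these libraries. The paper states that C57BL/6 mice express Famin p.254V, so at that residue the p.254V group matches the strain and p.254I departs from it. Marrow cells were grown for 6 days with 100 ng/mL of M-CSF, so every group is a macrophage made in culture, after which they received no stimulus (M0), 50 ng/mL of IFN-γ plus 20 ng/mL of LPS (M1) or 20 ng/mL of IL-4 (M2) for 24 h. This gave 45 libraries in 9 groups of 5, and libraries that share genotype and replicate number were taken as the 3 cultures of 1 mouse.

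Scavenger receptors bind modified lipoproteins, bacterial surfaces and other polyanionic or lipid debris and carry it into the macrophage. Dying cells display phosphatidylserine. The secreted protein GAS6 bridges that lipid to the receptor kinases MERTK and AXL, and protein S bridges it to MERTK. These kinases both trigger engulfment and restrain inflammatory signaling. MERTK is best known for the quiet clearance of dead cells by resting macrophages, whereas AXL is the receptor that macrophages raise in inflammatory settings.

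Total counts per library ran from 17239009 to 43740283 with a median of 27553642, and levels are given as CPM, counts scaled to library size with TMM factors. The labels of the polarizations held on Cxcl9 and Arg1. Cxcl9 lay between 979 and 5340 CPM in the 15 M1 libraries and did not exceed 1.45 CPM in M0 or 0.989 CPM in M2. Arg1 lay between 705 and 1421 CPM in M2 and did not exceed 0.719 CPM in M0. Other M1 markers were weaker: Nos2 had a median of 19.7 CPM in M1 (3.01 to 149), against at most 0.156 CPM in M0 and 0.574 CPM in M2. Il12b averaged under 0.1 CPM in every state, M1 included. The M1 library of p.254I replicate 5 held 40.8 CPM of Arg1 and 49.1 CPM of Retnla, which is 3.96% and 1.5% of the M2 medians, against at most 0.912 and 0.249 CPM in the other 14 M1 libraries. The pan-macrophage genes Adgre1 and Csf1r were present throughout (at least 1269 and 1471 CPM), and the 7 macrophage markers measured together had a median sum of 26766 CPM in M0 (18533 to 31615), 11067 CPM in M1 (10318 to 14321) and 9962 CPM in M2 (8040 to 12289). Summed markers of fibroblasts and stroma had a median of 34.3 CPM in M0 (17.1 to 89.6), 11.5 CPM in M1 (6.7 to 20.8) and 17.9 CPM in M2 (9.53 to 33), with Lum under 0.1 CPM on average in each. Summed markers of endothelium (a list that includes Stab2) had medians of 25.8 CPM (16.5 to 47.6), 6.26 CPM (4.49 to 9.82) and 33.7 CPM (22.9 to 47.9), with Tie1 under 0.1 CPM on average. The other lists were low as well, with neutrophils and precursors within 14.7 to 253 CPM and dendritic cells within 0.459 to 12.9 CPM, while the 4 B cell, 4 T and NK cell and 4 erythroid markers each summed to less than 1 CPM in every library. Their part in the results was not tested. The libraries farthest from their group means were the M0 and M2 libraries of p.254I replicate 4 (root mean square log2 deviations of 0.312 and 0.256, against a median of 0.167), followed by the M0 library of p.254I replicate 5 (0.253). The M2 library of p.284R replicate 3 deviated from its group in the opposite sense to the others numbered 3, with a correlation as low as -0.43. Lacc1 itself ran from 218 to 584 CPM in the M1 libraries of p.284R and from 486 to 523 CPM in those of p.254I. In p.284R, replicates 1 to 3 lay below replicates 4 and 5 in every state: 91.2 to 119 against 160 to 169 CPM in M0, 218 to 396 against 553 to 584 CPM in M1, and 56.8 to 122 against 175 to 200 CPM in M2. The cause of this split was not tested. Since the variants change the protein and not the number of genes, the level of Lacc1 does not check the genotype labels.

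To set the members beside each other, levels were divided by the length of each gene's merged exons. In M0 the highest level per kilobase belonged to Cd68, an endolysosomal glycoprotein used as a macrophage marker, at 1569 ± 74.9 CPM per kb (SD, n = 15), followed by Cd36, the class B receptor for oxidized lipoprotein and long-chain fatty acids, at 1175 ± 201 CPM per kb. Gas6 came next at 176 ± 33.1 CPM per kb and Stab1, the clearance receptor stabilin-1, after it at 133 ± 20 CPM per kb. Msr1, the class A receptor SR-A1, lay at 64.6 ± 6.29 CPM per kb and Mertk at 44.2 ± 13.4 CPM per kb. The lower end was held by Pros1 (22 ± 2.0 CPM per kb), Axl (18.1 ± 4.07 CPM per kb), Scarb1 (13.1 ± 1.80 CPM per kb) and Marco (6.26 ± 3.05 CPM per kb).

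Neighbors in this order mostly had overlapping ranges. Across the 15 M0 libraries only the steps from Cd36 to Gas6 and from Stab1 to Msr1 were free of overlap, although Cd68 exceeded Cd36 in all 15 libraries when each was compared within itself. In M2 the top of the order changed: Cd36 reached 2212 ± 226 CPM per kb and lay above Cd68 (1383 ± 164 CPM per kb) in all 15 libraries, with no overlap of the ranges. In M1 Cd68 (703 ± 76.0 CPM per kb) again lay above Cd36 (497 ± 75.1 CPM per kb) in all 15 libraries, and from Pros1 downward the M1 order could not be resolved, with Pros1 above Gas6 in 6 of 15 libraries, Gas6 above Marco in 10 of 15 and Marco above Stab1 in 7 of 15. With the longest transcript in place of merged exons, 5 of 10 members kept their rank in M1 and 5 of 10 in M2, with Scarb1, whose merged exons are 8500 bases against 3093 for its longest transcript, moving from rank 10 to rank 6 in M1.

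**Figure D1:**
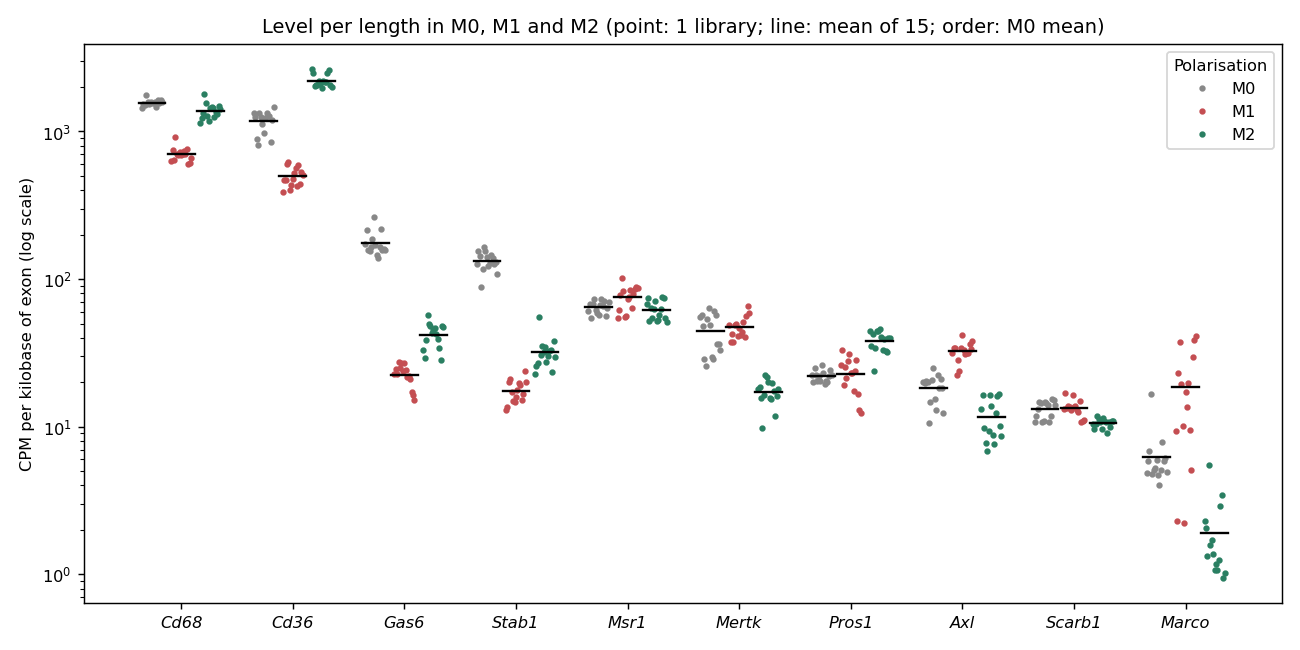
Level of the 10 members in CPM per kilobase of exon (log axis) in M0, M1 and M2, ordered by their M0 mean. Each point is 1 library (15 per polarization, 3 genotypes together) and each black line a mean. Cd68 and Cd36 lie above all other members in every polarization, and Marco is lowest in M0 and M2.

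Sequence just upstream of the start site is shown for the members that move together or that rise with IL-4, to place the transcriptional comparison on the genome. Gas6 and Stab1 had the most similar profiles of any pair of members (Pearson r = 0.972 over the 45 libraries, which share the 3 polarizations as their main source of spread), and Pros1 and Cd36 were the members that rose in M2. RefSeq promoter windows of GRCm38.p6, the assembly of the deposited counts (mm10), were available for 8 of the 10 members (not Msr1 and Scarb1), and 250 bases before the start site are printed 5′ to 3′ on the gene's strand. For Cd36 only 30 bases around a match are printed, which lie after a start site inside the annotated span of the gene. Capitals mark every match to one of 6 short motifs searched on both strands. Gas6 (chr8:13494536-13494785, minus strand) has no capitals, Stab1 (chr14:31168642-31168891, minus strand) has the letters GAGGAA of the PU.1 core at position -30, Pros1 (chr16:62854057-62854306, plus strand) has a STAT6-type match, TTCNNNNGAA, at -222, and Cd36 (chr5:17835857-17835886, minus strand) has a STAT6-type match at position 21 after the start site.
Gas6: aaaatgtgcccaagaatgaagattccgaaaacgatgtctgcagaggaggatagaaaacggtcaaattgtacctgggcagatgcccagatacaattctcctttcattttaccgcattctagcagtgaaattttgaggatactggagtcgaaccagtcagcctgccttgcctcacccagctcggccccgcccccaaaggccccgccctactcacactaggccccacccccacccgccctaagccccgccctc
Stab1: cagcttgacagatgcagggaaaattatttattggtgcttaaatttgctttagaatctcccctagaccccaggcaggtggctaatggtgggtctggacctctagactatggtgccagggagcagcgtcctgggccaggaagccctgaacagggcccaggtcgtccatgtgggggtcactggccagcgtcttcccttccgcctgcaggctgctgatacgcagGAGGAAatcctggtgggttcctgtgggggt
Pros1: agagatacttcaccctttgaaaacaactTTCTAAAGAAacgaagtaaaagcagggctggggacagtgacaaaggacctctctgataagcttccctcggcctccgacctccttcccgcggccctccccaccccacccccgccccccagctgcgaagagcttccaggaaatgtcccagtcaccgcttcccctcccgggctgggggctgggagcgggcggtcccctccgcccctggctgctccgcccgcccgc
Cd36: gtgatgggtcTTCACCAGAAatagaccctt
The STAT6-type letters were thus in 2 of 8 member windows and in 6.95% of all 32851 promoter windows, and the PU.1 core (Marco, Axl, Cd68 and Stab1) in 4 of 8 and 28.3%. The interferon response core GAAANNGAAA (3.44% of all windows), the E-box CACGTG (7.15%) and repeats of AGGTCA with 4 or 1 bases between them (0.0152% and 0.0396%) matched no member window. A match is a description of letters, not a bound site.

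The comparison of M1 with M0 asks how inflammatory polarization moved these receptors and ligands. Averaged over genotypes, 3 members were higher in M1 (Marco, Axl and Msr1), 4 were lower (Gas6, Stab1, Cd36 and Cd68) and 3 were not called (Mertk, Pros1 and Scarb1) by edgeR at an adjusted p under 0.05. Among all genes tested 37.0% were called higher and 40.3% lower, so the members' share of calls in either direction was near that of other genes. Their median log2 fold change was 0.03, against -0.03 over all genes. The 15-library ranges did not overlap for 4 members (all 4 that fell), which compares with 28.6% of all genes. In bulk RNA, fewer cells of a type and less RNA per cell cannot be told apart.

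In M2 against M0, 2 members were higher (Cd36 and Pros1), 7 were lower (Gas6, Stab1, Marco, Mertk, Axl, Scarb1 and Cd68) and Msr1 was not called. The background was 36.8% of genes called higher and 39.6% lower. The member median was -0.48, against -0.03 over all genes. Ranges of the 15 libraries did not overlap for 4 members (Cd36, Stab1, Mertk and Gas6), as for 23.4% of all genes. Between M1 and M2 directly, all 10 members differed: 5 were higher in M1 (Marco, Axl, Mertk, Scarb1 and Msr1; background 39.0%) and 5 were lower (Cd36, Cd68, Gas6, Stab1 and Pros1; background 40.1%). The M0 libraries enter both comparisons with M0, so those share their controls.

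**Figure D2:**
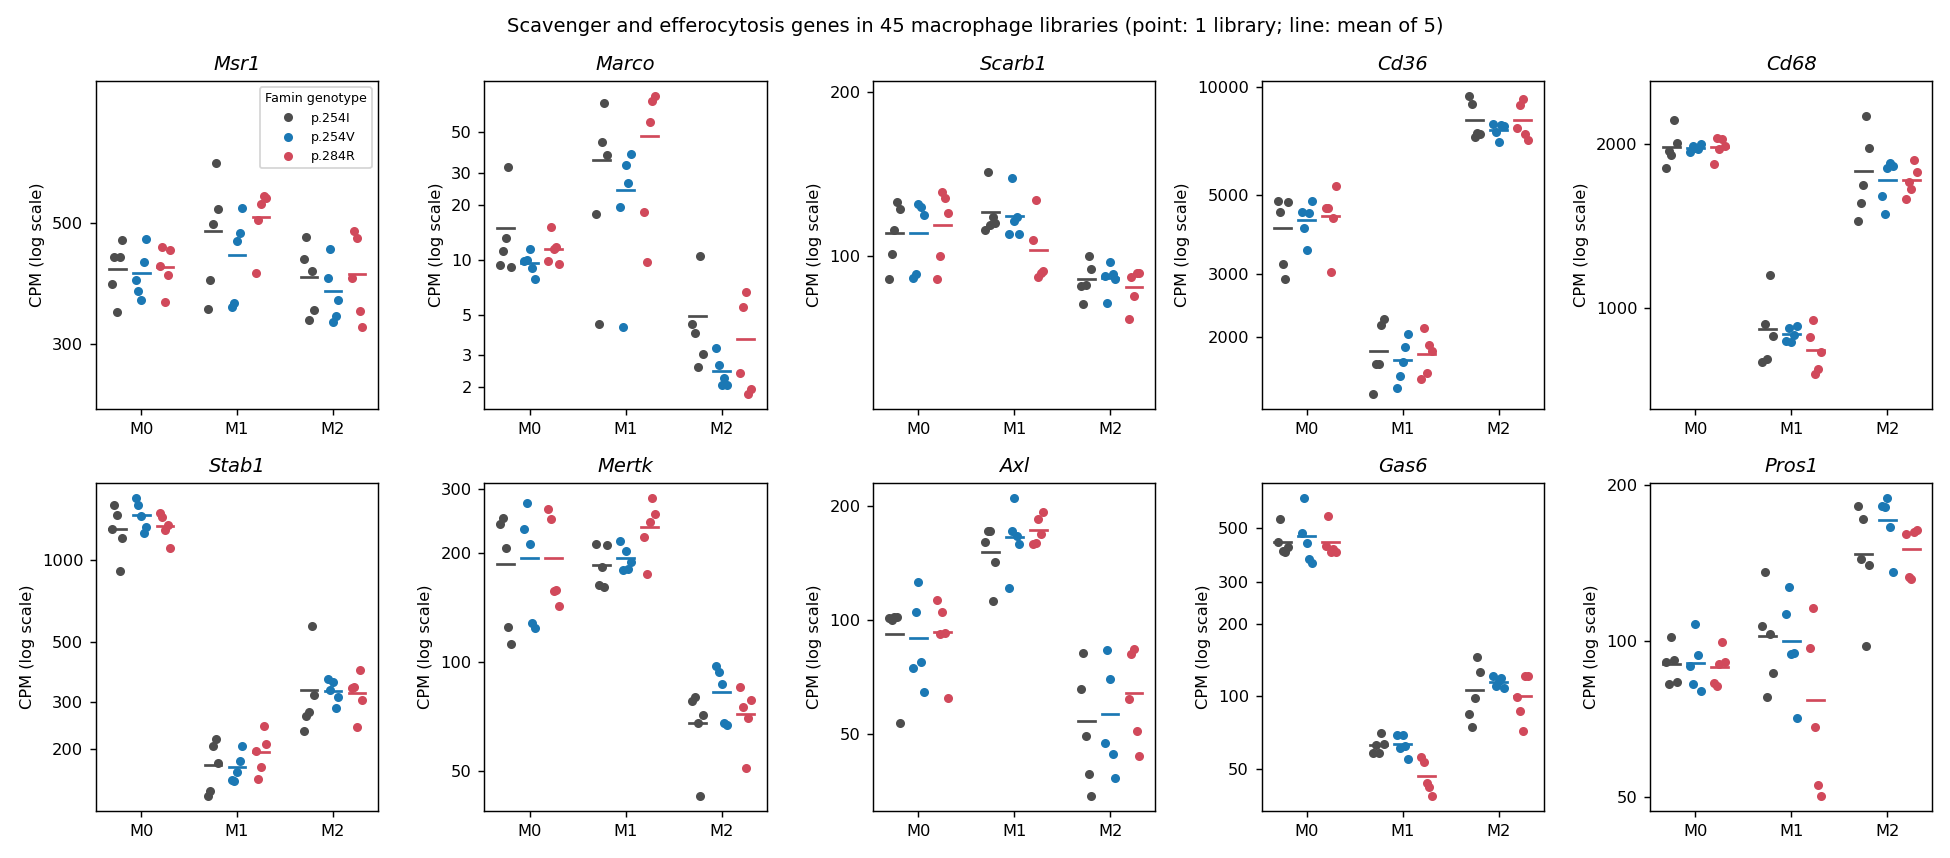
CPM (log axis) of each member in the 45 libraries, by polarization and Famin genotype. Each point is 1 library, drawn within a group in order of replicate number, and each line is a group mean of 5. Gas6 and Stab1 are highest in M0, Cd36 is highest in M2 and lowest in M1, and the 3 genotypes lie over each other in most panels.

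The class A scavenger receptors moved in different ways. Marco, which binds bacteria and particles and is induced on activated macrophages, had between 7.80 and 32.2 CPM in M0 (median 10.0), between 4.26 and 79.2 CPM in M1 (median 33.2) and between 1.83 and 10.5 CPM in M2 (median 2.65). M1 overlapped M0: the 3 M1 cultures of replicate 2 (4.26 to 9.77 CPM) were below their own M0 cultures, and the M0 library of p.254I replicate 4 (32.2 CPM) lay above several other M1 libraries. The other 12 mice all had more Marco in M1 than in M0. Marco rose by 1.54 ± 0.30 on the log2 scale in M1 (2.91-fold, edgeR adjusted p = 1.77e-05) and fell by 1.73 ± 0.33 in M2 (adjusted p = 1.14e-05), with all 15 mice lower in M2 than in M0. Its M1 level was 9.68-fold that in M2. The rise in M1 was 1.85 without the 3 mice numbered 2.

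Msr1, the paralog SR-A1 that takes up acetylated lipoprotein, moved little: it ran from 343 to 467 CPM in M0 (median 416), from 347 to 642 CPM in M1 (median 497) and from 322 to 483 CPM in M2 (median 396). All 3 ranges overlapped, and 10 of 15 mice had more in M1 than in M0. The rise in M1 passed the test at a small size (log2 fold change 0.21 ± 0.08, edgeR adjusted p = 0.0133). It was lost without p.254I mice 4 and 5 and p.284R mouse 3, which hold libraries that stand apart (0.16, adjusted p = 0.089). Within single genotypes it was called in p.284R only. Means at replicate numbers 1 and 2 were 367 and 418 CPM in M1 against 398 and 420 CPM in M0. At numbers 3, 4 and 5 they were 500, 560 and 539 CPM against 354, 420 and 459 CPM. In M2 its difference from M0 was -0.07 ± 0.08 (adjusted p = 0.430). Msr1 exceeded Marco per kilobase in all 45 libraries, by a median of 11.7-fold in M0, 4.29-fold in M1 and 38.9-fold in M2 (20.5, 7.47 and 68.1-fold with the longest transcript as length).

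Of the class B receptors, Cd36 gave the clearest pattern across the 3 states. It had 2917 to 5280 CPM in M0 (median 4470), 1386 to 2245 CPM in M1 (median 1701) and 7025 to 9455 CPM in M2 (median 7708). No library of one state reached the range of another, and every mouse had the order M2, M0, M1. Cd36 was 2.37-fold lower in M1 than in M0 (log2 fold change -1.24 ± 0.08, edgeR adjusted p = 2.24e-17) and 1.88-fold higher in M2 (0.91 ± 0.08, adjusted p = 3.48e-13). Scarb1, the receptor SR-BI that exchanges cholesterol ester with high-density lipoprotein, moved less, at 90.7 to 131 CPM in M0 (median 119), 91.7 to 143 CPM in M1 (median 114) and 76.9 to 100 CPM in M2 (median 91.6). Averaged over all mice, its M1 level was not distinguishable from M0 (0.03 ± 0.06, adjusted p = 0.700). That average held opposite differences. Means at replicate numbers 1 and 2 were 110 and 136 CPM in M1 against 91.0 and 98.0 CPM in M0. At numbers 3, 4 and 5 they were 107, 110 and 106 CPM against 123, 126 and 120 CPM. In M2 Scarb1 fell by 0.31 ± 0.06 (adjusted p = 1.50e-05), in 14 of 15 mice. The ratio of Cd36 to Scarb1 per kilobase accordingly had a median of 95.8 in M0, 37.7 in M1 and 203 in M2, with ranges of 54.7 to 125, 26.6 to 48.2 and 170 to 260 that did not overlap. With the longest transcript as length the medians were 36.9, 14.5 and 77.8, again without overlap.

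Cd68 fell clearly in M1 and by little in M2. It ran from 1805 to 2210 CPM in M0 (median 1968), from 756 to 1151 CPM in M1 (median 884) and from 1445 to 2251 CPM in M2 (median 1706). The M1 range lay below both others, whereas M2 overlapped M0. Cd68 was 2.23-fold lower in M1 (log2 fold change -1.16 ± 0.05, edgeR adjusted p = 1.26e-22, lower in 15 of 15 mice) and 1.13-fold lower in M2 (-0.18 ± 0.05, adjusted p = 0.00181, lower in 14 of 15). The M2 call held only averaged over genotypes, with edgeR adjusted p = 0.154 in p.254I, 0.0558 in p.254V and 0.0535 in p.284R.

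Stab1, which clears apoptotic cells and modified lipoprotein and is carried by resident macrophages and sinusoidal endothelium, was the scavenger receptor that fell most. It had 912 to 1707 CPM in M0 (median 1352), 134 to 244 CPM in M1 (median 178) and 234 to 569 CPM in M2 (median 316). Both stimulated states lay entirely below M0. Stab1 was 7.59-fold lower in M1 (log2 fold change -2.92 ± 0.11, edgeR adjusted p = 1.06e-25) and 4.18-fold lower in M2 (-2.06 ± 0.10, adjusted p = 1.23e-20). In M1 it was also lower than in M2, in all 15 mice (-0.86 ± 0.10). The summed stromal markers had the same order of medians (34.3, 17.9 and 11.5 CPM in M0, M2 and M1). The endothelial sum was lower in M1 (6.26 CPM) but not in M2 (33.7 CPM) than in M0 (25.8 CPM). That sum includes Stab2, the paralog of Stab1, whose mean alone was 22.9 CPM in M0, 1.37 CPM in M1 and 33.5 CPM in M2. The part of these markers in the levels of Stab1 was not tested. Its annotated span overlaps Nt5dc2 on the opposite strand, and the use of strand in counting is not stated in the sources used here.

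The 2 receptor kinases parted from each other. Mertk had 112 to 274 CPM in M0 (median 207), 161 to 284 CPM in M1 (median 203) and 42.8 to 97.7 CPM in M2 (median 75.5). M0 and M1 overlapped almost fully, and M2 lay below both. Mertk fell by 1.37 ± 0.13 on the log2 scale in M2 (2.59-fold, edgeR adjusted p = 1.21e-12), and its M1 difference from M0 was 0.09 ± 0.12 (adjusted p = 0.508, higher in 7 of 15 mice). That M1 difference rested on which mice were used. It was 0.29 with an adjusted p of 0.0453 without the 3 mice numbered 2. Without the 3 mice that hold libraries standing apart it was -0.03 (adjusted p = 0.835). Its sign also followed the replicate number. Every mouse numbered 1 or 2 had less Mertk in M1 than in M0, with means of 216 and 172 against 246 and 257 CPM. Every mouse numbered 4 or 5 had more, with means of 209 and 219 against 137 and 126 CPM. At number 3 the means were 210 and 192 CPM. Axl had 53.5 to 126 CPM in M0 (median 99.9), 112 to 210 CPM in M1 (median 166) and 34.3 to 83.7 CPM in M2 (median 50.9). Its M1 range lay above M2 and touched M0 only at its lower end, and every mouse had the order M1, M0, M2. Axl rose 1.78-fold in M1 (0.83 ± 0.13, adjusted p = 3.14e-07) and fell 1.57-fold in M2 (-0.65 ± 0.13, adjusted p = 2.67e-05).

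The ratio of Mertk to Axl per kilobase had a median of 2.43 in M0 (1.43 to 3.63), 1.53 in M1 (1.10 to 2.07) and 1.60 in M2 (0.708 to 2.42). Mertk remained the more abundant kinase per length in all 15 M0 and all 15 M1 libraries and in 14 of 15 M2 libraries, or in 15, 13 and 12 of 15 with the longest transcript as length.

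The bridging ligands also parted. Gas6, the ligand of both kinases, had 358 to 671 CPM in M0 (median 417), 38.5 to 70.1 CPM in M1 (median 58.4) and 71.8 to 146 CPM in M2 (median 110). The 3 ranges did not overlap, and the order M0, M2, M1 held in all 15 mice. Gas6 was 7.86-fold lower in M1 (log2 fold change -2.97 ± 0.10, edgeR adjusted p = 1.27e-27) and 4.18-fold lower in M2 (-2.06 ± 0.09, adjusted p = 2.69e-22), close to the sizes for Stab1, whose upstream sequence is printed beside it above. The stromal marker medians again had the same order of states, and their part in the levels of Gas6 was not tested. The span of Gas6 overlaps Tmem255b on the opposite strand. Pros1, which encodes the anticoagulant protein S and is a ligand of Mertk, had 80 to 108 CPM in M0 (median 90.5), 50.3 to 136 CPM in M1 (median 94.8) and 98.0 to 189 CPM in M2 (median 162). M1 spread on both sides of M0, and all 15 mice had more Pros1 in M2 than in M0. Pros1 rose 1.73-fold in M2 (0.79 ± 0.10, adjusted p = 3.58e-09), and its M1 difference was 0.04 ± 0.10 (adjusted p = 0.750). That M1 difference also averaged opposite ones. Means at replicate numbers 1 and 2 were 106 and 127 CPM in M1 against 87.9 and 82.5 CPM in M0. At numbers 3, 4 and 5 they were 80.2, 83.6 and 69.5 CPM against 100, 95.2 and 84.9 CPM.

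Gas6 thus exceeded Pros1 per kilobase by a median of 7.17-fold in M0 (6.32 to 13), whereas in M1 and in M2 the levels of both ligands per length overlapped. The ratio had a median of 1.05 in M1 (0.735 to 1.27, above 1 in 9 of 15 libraries) and of 1.05 in M2 (0.748 to 2.38, above 1 in 8 of 15). With the longest transcript as length the median ratio was 5.77 in M0, 0.846 in M1 and 0.848 in M2, with Gas6 above Pros1 in 2 of 15 M1 and 3 of 15 M2 libraries. The M1 and M2 ranges of this ratio lay wholly below the M0 range by either length.

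**Figure D3:**
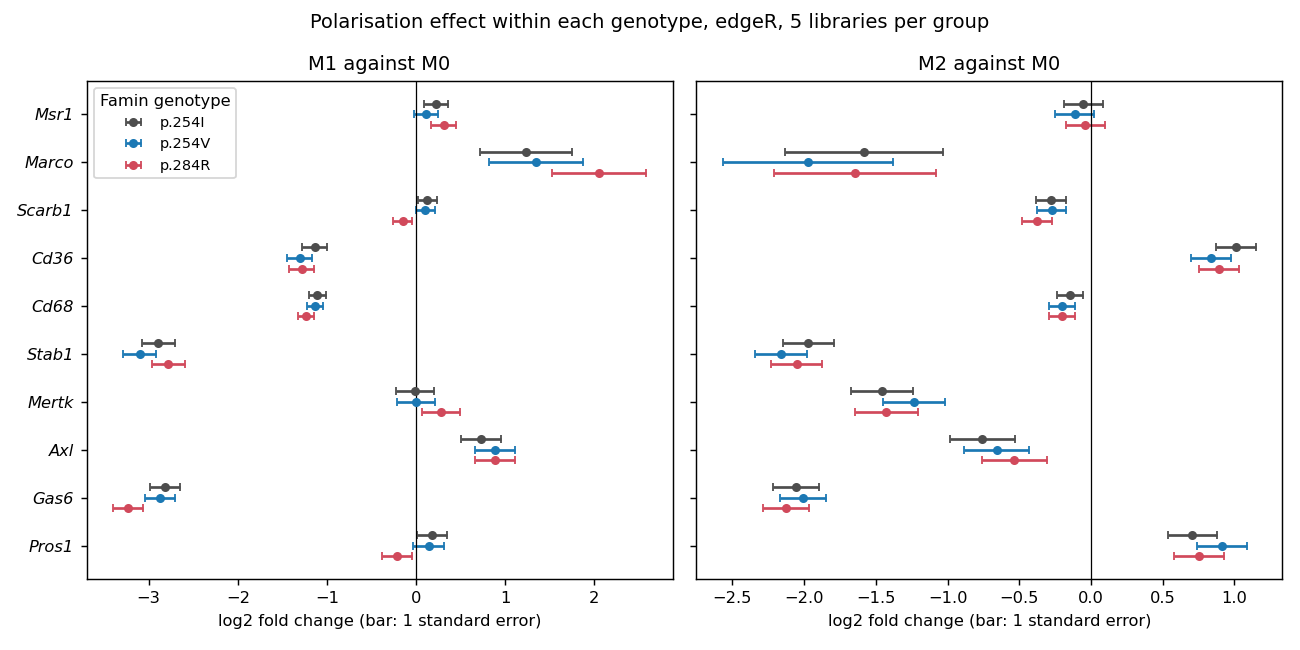
Log2 fold change of each member in M1 against M0 (left) and M2 against M0 (right) within each Famin genotype. Points are edgeR estimates from 5 libraries per group and bars are 1 standard error. The 3 genotypes gave the same direction for every member in M2 and for all but Mertk, Scarb1 and Pros1 in M1.

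Within single genotypes the directions were the same for all 10 members in M2 against M0 and for 7 of 10 in M1 against M0. Mertk, Scarb1 and Pros1, none of them called, differed in sign between genotypes in M1: Pros1 changed by 0.18, 0.14 and -0.21 and Scarb1 by 0.13, 0.10 and -0.15 on the log2 scale in p.254I, p.254V and p.284R. The interaction tests, which ask whether the polarization effect itself differed from p.254I, called 0 of the 10 members in any of the 4 contrasts by edgeR, with 0 of 40 tests at an unadjusted p under 0.05, and DESeq2 and limma-voom called 0 members too. No gene at all was called in the 4 interactions (0.0% for M1 by p.284R, 0.0% for M1 by p.254V, 0.0% for M2 by p.284R and 0.0% for M2 by p.254V), with 70 to 356 genes at an unadjusted p under 0.05 and 0 called by DESeq2.

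The comparison of genotypes asks whether Famin variants alter these genes in macrophages of the same state. No member was called in any of 12 genotype contrasts by edgeR, DESeq2 or limma-voom, and 7 of the 120 edgeR tests had an unadjusted p under 0.05. Of these, 3 were in p.284R against p.254I in M1, where 864 of 12905 genes had such a p. Another 2 were in p.284R against p.254V in M1 (799 genes). The averaged contrasts p.254V against p.254I (323 genes) and p.284R against p.254V (607 genes) held 1 each. In p.284R against p.254I the background of called genes was 0.0155% averaged over polarizations, 0.0% in M0, 0.263% in M1 and 0.00775% in M2. In p.254V against p.254I it was 0.0155% averaged and 0.0% in M0, 0.0% in M1 and 0.0% in M2. In p.284R against p.254V it was 0.0% averaged, 0.0% in M0, 0.0775% in M1 and 0.0% in M2. In the 7 contrasts with 0 genes called, 53 to 607 genes had an unadjusted p under 0.05, and DESeq2 called 0 to 3 genes. When the replicate number was added as a block, the M1 counts over all genes rose from 34 to 64 for p.284R against p.254I and from 10 to 36 for p.284R against p.254V, with no member among them.

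For the 9 members other than Marco, the intervals of 2 standard errors around the differences of p.284R and p.254V from p.254I stayed between -0.755 and 0.772 on the log2 scale over the 8 contrasts with p.254I. Averaged over polarizations, in a fit with no term for the mouse that gave 3 cultures, they stayed between -0.347 and 0.410 for p.284R and between -0.243 and 0.378 for p.254V. A p that misses the threshold does not show that the genotypes are alike.

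Gas6 in p.284R gave the lowest unadjusted p-values. Against p.254V the log2 difference in M1 was -0.44 ± 0.16 (unadjusted p = 0.00801, edgeR adjusted p = 0.590). Averaged over polarizations it was -0.24 ± 0.09 (unadjusted p = 0.0111, edgeR adjusted p = 0.948). Gas6 had 58.1, 62.5, 58.4, 70.1 and 63.2 CPM in p.254I replicates 1 to 5 and 56.0, 53.4, 43.5, 41.9 and 38.5 CPM in p.284R, with 68.9, 61.1, 68.9, 61.9 and 55.0 CPM in p.254V. Every p.284R library lay below every p.254I library, whereas p.284R overlapped p.254V at 1 end. The log2 difference of p.284R from p.254I was -0.42 ± 0.16 (unadjusted p = 0.0105, edgeR adjusted p = 0.481, or 0.294 when the replicate number was a block), so it did not pass over all genes. Non-overlapping ranges of this kind were found in 1 of 10 members and in 0.604% of all genes.

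Pros1 followed a similar course in M1, with 107, 136, 78, 103 and 87 CPM in p.254I and 96.8, 116, 68.4, 52.8 and 50.3 CPM in p.284R replicates 1 to 5. The groups overlapped, but p.284R was lower at each of the 5 numbers (log2 difference -0.41 ± 0.17, unadjusted p = 0.0219, edgeR adjusted p = 0.623). Against p.254V its difference was -0.38 ± 0.17 (unadjusted p = 0.0334, adjusted p = 0.750). Scarb1 had 112, 143, 114, 118 and 115 CPM in p.254I and 107, 127, 91.7, 93.2 and 94.2 CPM in p.284R, again lower at each of the 5 numbers (-0.23 ± 0.10, unadjusted p = 0.0324, adjusted p = 0.670). Mertk stood the other way, with 211, 163, 183, 161 and 210 CPM in p.254I and 221, 175, 244, 284 and 256 CPM in p.284R, higher at each of the 5 numbers but with overlapping ranges (0.35 ± 0.21, adjusted p = 0.871). In the same 5 p.284R M1 libraries Lacc1 was at 396, 263, 218, 584 and 553 CPM. None of these differences passed the threshold. The share of all genes with the same sign at all 5 numbers was not determined, so these sign counts only describe the values. In M0 the p.284R difference from p.254I was between -0.02 and 0.11 for the 9 members other than Marco.

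Marco was the most variable member between mice. Its p.254V mean over the 3 states differed from that of p.254I by -0.74 ± 0.32 on the log2 scale, which had an unadjusted p under 0.05 and an adjusted p of 1, with 32.2 and 10.5 CPM in the M0 and M2 libraries of p.254I replicate 4 against at most 13.2 and 4.43 CPM in the other p.254I libraries. Without the 3 mice with libraries standing apart this difference was -0.22. Its interval in p.284R against p.254I in M1 ran from -0.57 to 1.44 (0.43 ± 0.50, adjusted p = 0.975). Marco there had 17.9, 4.43, 44.2, 72.7 and 37.5 CPM in p.254I and 18.3, 9.77, 57.1, 74.1 and 79.2 CPM in p.284R replicates 1 to 5, overlapping but higher in p.284R at each of the 5 numbers. For this sign count too the share over all genes was not determined.

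**Figure D4:**
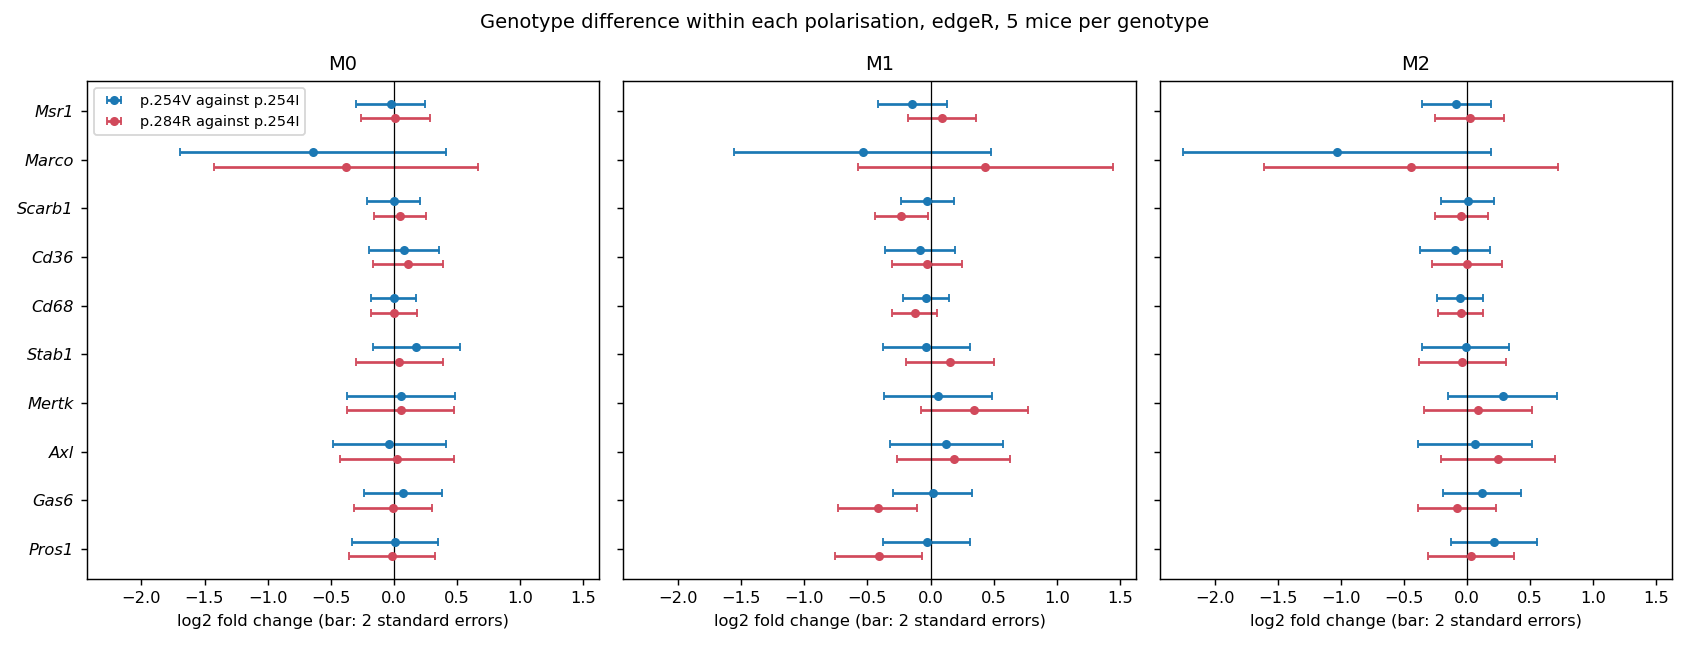
Log2 difference of p.254V and p.284R from p.254I within M0, M1 and M2 for each member. Points are edgeR estimates from 5 mice per genotype and bars are 2 standard errors. The bars of p.284R leave 0 in M1 for Gas6, Pros1 and Scarb1, with adjusted p-values from 0.481 to 0.670, and Marco has the widest bars. In that comparison 864 of 12905 genes had an unadjusted edgeR p under 0.05.

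Members differed between replicate numbers. In a fit of genotype plus replicate number within each polarization, chosen after the data had been seen, the number was called for 8 of 10 members in M0 (all but Marco and Cd68), for 6 of 10 in M1 (Msr1, Marco, Scarb1, Cd36, Stab1 and Pros1) and for 2 of 10 in M2 (Cd68 and Axl). Over all genes it was called for 45.4% in M0, 35.7% in M1 and 18.3% in M2. The meaning of the number is not given in the sources used here, and mice of all 3 genotypes carry each number.

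In M0 Mertk had 233 to 274 CPM in the 6 libraries numbered 1 and 2, 157 to 212 CPM in the 3 numbered 3 and 112 to 158 CPM in the 6 numbered 4 and 5 (edgeR adjusted p = 0.000220). The first of these sets did not overlap the last. Scarb1 showed the opposite order in M0, with 90.7 to 101 CPM at numbers 1 and 2 and 112 to 131 CPM at numbers 3 to 5 (adjusted p = 0.000112). Gas6 stood out at number 2 in M0, with 546 to 671 CPM there against 358 to 480 CPM elsewhere (adjusted p = 0.000510). In M1 Marco had 17.9 to 19.4 CPM at number 1, 4.26 to 9.77 CPM at number 2 and 26.3 to 79.2 CPM at numbers 3 to 5 (adjusted p = 0.00126). In M2 Axl had 47.3 to 65.8 CPM at number 1, 81.1 to 83.1 CPM at number 2, 49.4 to 83.7 CPM at number 3 and 34.3 to 50.9 CPM at numbers 4 and 5 (adjusted p = 0.00570).

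**Figure D5:**
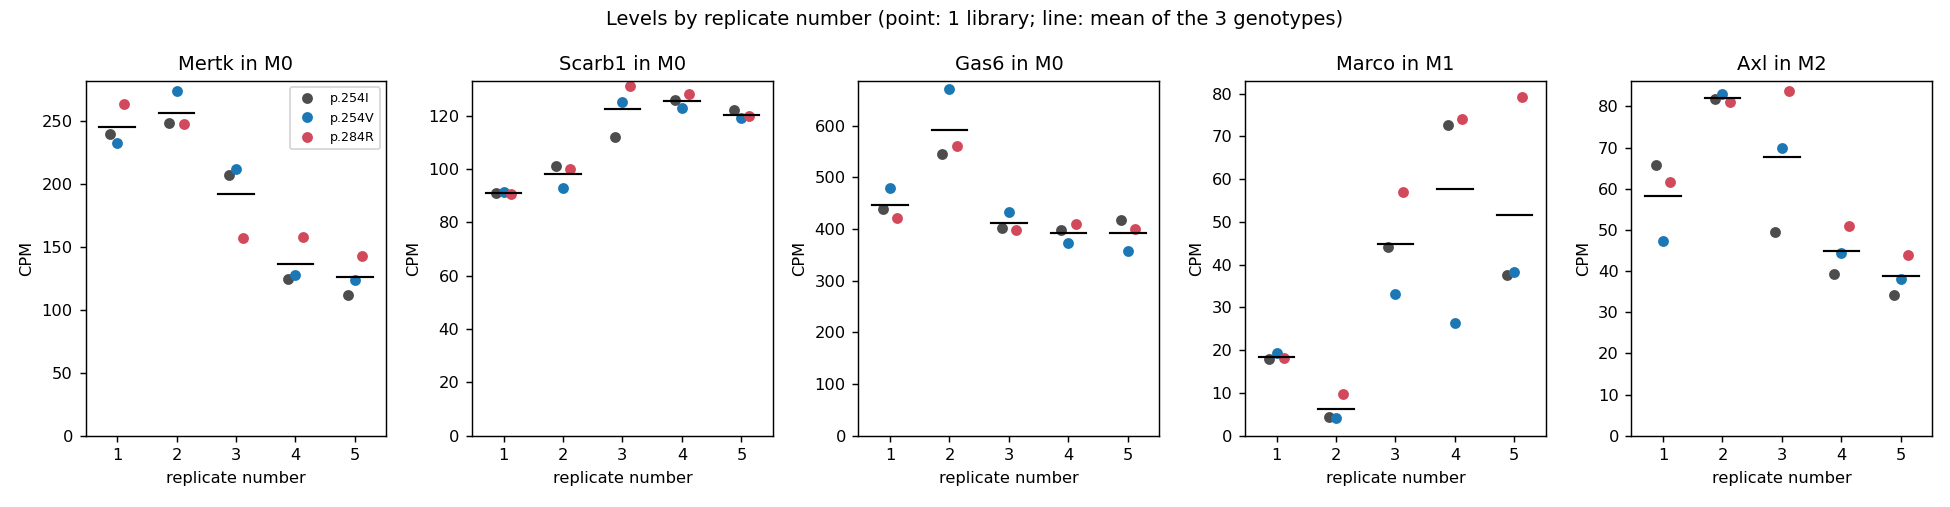
CPM by replicate number for Mertk, Scarb1 and Gas6 in M0, Marco in M1 and Axl in M2. Points are single libraries colored by Famin genotype and lines are the mean of the 3 genotypes at that number. Libraries of the 3 genotypes with the same number lie close to each other in M0 for Scarb1, at 90.7 to 91.4 CPM for number 1.

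The wider set of genes around scavenging and efferocytosis moved strongly as well. Of the 64 genes of 5 groups that were found in the count table, 60 were tested. In M1 against M0, 23 were higher (38.3%, against a background of 37.0%) and 33 lower (55.0%, against 40.3%). In M2 against M0, 18 were higher (30%, against 36.8%) and 36 lower (60.0%, against 39.6%). None of the 60 was called between p.284R and p.254I in M1 or averaged, nor between p.254V and p.254I averaged. The same shares over all genes are the background for the counts of each of the 5 groups below, which were not tested as sets.

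Among the other scavenger receptors, 3 of 13 tested were higher and 10 were lower in M1, and 3 were higher and 10 lower in M2. The hemoglobin-haptoglobin receptor Cd163 fell from 5.89 ± 2.53 CPM in M0 to 0.156 ± 0.107 in M1 (mean ± SD, n = 15), Colec12 from 59.9 ± 8.60 to 3.53 ± 0.542 CPM and Stab2, the paralog of Stab1, from 22.9 ± 10.4 to 1.37 ± 0.567 CPM. Unlike Stab1, Stab2 rose in M2, to 33.5 ± 6.58 CPM (log2 fold change 0.55 ± 0.17, edgeR adjusted p = 0.00383). Scarf1 (0.65 ± 0.08) and Cxcl16 (0.45 ± 0.11) rose in M1. In M2 the lectin-like oxidized lipoprotein receptor Olr1 rose from 0.230 ± 0.115 to 6.34 ± 2.02 CPM and the mannose receptor Mrc1 from 756 ± 77.3 to 1303 ± 357 CPM, whereas the LPS co-receptor Cd14 fell from 425 ± 133 to 49.1 ± 9.84 CPM, Cd5l from 1027 ± 160 to 233 ± 48.0 CPM and Cxcl16 from 242 ± 56.6 to 68.5 ± 10.2 CPM.

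Of 20 other genes of dead cell recognition and bridging, 9 were higher and 10 lower in M1, and 6 were higher and 13 lower in M2. Mfge8, a bridging protein that links phosphatidylserine to integrins, fell from 433 ± 70.8 CPM in M0 to 64.6 ± 12.8 in M1 (log2 fold change -2.74 ± 0.11). Itgb3, the integrin chain that pairs with αv, went in opposite directions, from 16.6 ± 3.38 CPM in M0 to 1.77 ± 1.99 in M1 and 149 ± 18.1 in M2. Anxa1 did likewise, from 1841 ± 200 CPM to 346 ± 43.3 in M1 and 3784 ± 315 in M2. The phosphatidylserine receptor Cd300lf mirrored them, with 14.2 ± 5.26 CPM in M0, 115 ± 11.8 in M1 and 2.72 ± 1.08 in M2. Havcr2 (TIM-3) ran in the same direction as Cd300lf, at 28.3 ± 7.96, 56.9 ± 9.26 and 11.8 ± 2.05 CPM, and C1qa, a chain of complement C1q, rose in M1 from 403 ± 80.3 to 926 ± 78.7 CPM. Lgals3 rose in M2 from 4550 ± 524 to 9337 ± 889 CPM, and Thbs1, thrombospondin-1, a ligand of Cd36, fell from 376 ± 195 to 33.4 ± 15.4 CPM.

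Engulfment and cargo-handling genes went both ways. Of 15 tested, 7 were higher and 6 lower in M1, and 7 were higher and 5 lower in M2. The cholesterol exporters split, Abcg1 rising from 274 ± 34.8 CPM to 702 ± 82.0 in M1 and 529 ± 60.6 in M2 and Abca1 falling from 818 ± 261 to 295 ± 41.0 and 285 ± 61.3 CPM. Elmo2, an adaptor for Rac activation at the phagocytic cup, rose in M2 from 99.4 ± 5.62 to 299 ± 22.9 CPM while Elmo1 fell from 109 ± 17.3 to 72.1 ± 7.76 CPM, and Dock2 rose from 511 ± 59.3 to 1019 ± 91.1 CPM. In M1 the lysosomal lipase Lipa fell from 3263 ± 283 to 1760 ± 93.3 CPM and the lysosomal nuclease Dnase2a from 200 ± 20.9 to 109 ± 12.6 CPM, whereas Npc2, a lysosomal cholesterol carrier, rose from 1520 ± 257 to 2317 ± 155 CPM. Elmo2 rose in M1 too (0.39 ± 0.04), and Rubcn, a factor of LC3-associated phagocytosis, fell in M2 from 73.1 ± 7.26 to 40.4 ± 4.16 CPM.

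Of 6 regulators of the receptors that were tested, 1 was higher and 4 were lower in M1, and likewise in M2. Over all genes 37.0% were higher and 40.3% lower in M1, and 36.8% and 39.6% in M2, and a list of 6 is small beside these. Pparg, a nuclear receptor known to drive Cd36, had 75.4 ± 11.7 CPM in M0, 38.8 ± 5.30 in M1 and 150 ± 16.2 in M2, the same order of states as Cd36. Its partner Rxra fell to 40.4 ± 5.28 CPM in M1 and 69.1 ± 9.09 in M2 from 124 ± 31.3, and Maf fell from 198 ± 25.0 to 81.0 ± 6.61 and 35.9 ± 8.12 CPM. Of the LXR genes, Nr1h2 rose in M1 from 96.8 ± 3.83 to 131 ± 5.58 CPM and Nr1h3 fell in M2 from 27.2 ± 4.32 to 16.0 ± 3.20 CPM. The part of these regulators in the levels of the members, that of Pparg in Cd36 included, was not tested.

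Among genes of restraint and receptor shedding, 3 of 6 were higher and 3 lower in M1, and 1 was higher and 4 lower in M2. Socs1, a feedback inhibitor of cytokine signaling, rose from 1.10 ± 0.385 CPM in M0 to 178 ± 25.1 in M1 and 39.0 ± 5.45 in M2, and Socs3 from 1.71 ± 0.402 to 24.4 ± 5.66 CPM in M1 while it fell to 1.12 ± 0.351 in M2. Cd47, the signal that protects cells from engulfment, rose in M1 from 223 ± 29.7 to 507 ± 24 CPM, and its receptor Sirpa fell from 3454 ± 215 to 1720 ± 73.0 in M1 and 2378 ± 229 in M2. The sheddases that cleave MERTK and AXL were slightly lower, Adam17 at -0.38 ± 0.05 in M1 and -0.27 ± 0.05 in M2 and Adam10 at -0.17 ± 0.06 in M1 on the log2 scale, the last of which was lost without the 3 mice numbered 2 (-0.13, edgeR adjusted p = 0.0911).

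Genes outside the set whose log2 CPM ran most like each member over the 45 libraries (Pearson r, as a description, since the libraries share their polarization) were Ercc6 (0.990) and Rai14 (0.988) for Cd36, Igfbp4 (0.988) for Gas6, Trem2 (0.985) and Gpr176 (0.980) for Cd68, and S1pr1 (0.975) and Plxna2 (0.975) for Stab1. For the kinases they were Tmem86a (0.949) and Plcl2 (0.948) with Mertk and Itgal (0.943) and Stk4 (0.928) with Axl. Marco was most like Isg20 (0.926) and Cflar (0.912), Pros1 like Crat (0.905) and Tram1 (0.894), and Scarb1 like Nipsnap1 (0.859) and Nrm (0.857), while Msr1 had no close match, the highest being Ehd1 (0.759) and Agfg1 (0.733). Among the members themselves the most opposed pairs were Cd36 with Axl (r = -0.867) and Marco with Pros1 (r = -0.845).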

How the data were processed

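The titles of the samples gave genotype, polarization and replicate number. The authors prepared stranded poly(A) libraries (single-end reads of 50 bases), aligned them to mm10 and deposited counts of reads per Ensembl gene without normalization, together with a CPM table of 11900 genes. Whole reads recovered from the deposited CPM values equalled the counts for 100% of values (tolerance 0.01 reads). The study's methods name TrimGalore and HISAT2, the series text names Cutadapt and STAR, and the counting tool is not given in the sources used here.

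Counts were fitted in R 4.3.3 with edgeR 4.0.16 (filterByExpr, 12905 genes, TMM factors from 0.939 to 1.10, robust glmQLFit over the 9 groups and 45 libraries), with Benjamini-Hochberg adjustment over all genes tested and calls at an adjusted p under 0.05. Values after ± are standard errors for log2 fold changes and SD for levels. DESeq2 1.42.0 and limma 3.58.1 were alternatives. The fit was also tested on simulated counts drawn independently for each library. Those held no effect of mouse or replicate number, so they could not test the fit in the presence of such effects. Per-kilobase levels used merged exons of GENCODE vM21, and promoters were RefSeq windows of 250 bases before to 50 after the start.

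Libraries with the same genotype and number were taken as cultures of 1 mouse, and the counts of mice above rest on that reading. Between 2 states, deviations from group means of such libraries correlated above 0.1 in 38 of 45 pairs (r from -0.19 to 0.652). For M1 with M2 in p.284R this held in 2 of 5 pairs. Across genotypes, deviations from group means correlated above 0.1 in all 15 pairs that share a number in M0 and in M1 but in 13 of 15 in M2, so the number was taken to pair libraries in M0 and M1. Per the series' design text the 5 libraries of a group come from 5 mice. Genotype p-values within a state thus rest on the spread between mice, which includes differences between replicate numbers. The main fit had no term for the mouse. Averaged genotype contrasts therefore treated the cultures of a mouse as independent, and polarization contrasts were not paired by mouse.

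The members, the other gene lists and the tests were chosen with earlier results of these data known. All members were named. Of each other list, up to 3 genes called higher and 3 called lower with the largest change were named in M1 and in M2 against M0, if of the same sign in all genotypes and with a mean of at least 5 CPM in 1 group. Genes alike in profile were the 2 of highest r with a mean of at least 5 CPM. Some items under these rules, a promoter motif among them, are not reported here.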

Additional observations from a re-analysis of the deposited data

Results flagged for a closer look

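Among 90 groups of 5 libraries (10 members in 9 groups), 8 held a library that lay apart from the other 4 by Dixon's criterion, which chance alone gives in about 1 group of 20. Of these, 3 were libraries of p.254I replicate 4: Marco at 32.2 CPM in M0 against 9.19 to 13.2 in the others, Marco at 10.5 CPM in M2 against 2.59 to 4.43, and Stab1 at 569 CPM in M2 against 234 to 316. The M0 culture of p.254I replicate 5 had Axl at 53.5 CPM against 99.9 to 102 in the others. The remaining 4 were libraries numbered 2: Scarb1 in M1 at 143 CPM in p.254I (others 112 to 118) and 139 CPM in p.254V (others 110 to 118), and Gas6 in M0 at 546 CPM in p.254I (others 398 to 439) and 561 CPM in p.284R (others 399 to 422).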

How the results depend on the processing

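The counts of members called, the counts of other pathway genes called and the genotype and interaction counts of members stayed within 1.5 times the reported value in all 747 recomputations, and 0 members were called between genotypes in any of them. Settings were DESeq2 size factors, the DESeq2 Wald test, limma-voom, limma-voom with a random effect of the mouse, no filter, at least 10 counts in every library, only the libraries compared, counts summed per mouse, the replicate block by number or by mouse, each mouse left out, and, chosen after seeing the data, reads recovered from the CPM table and 2 sets of 3 mice left out. The replicate block changed no call of a member. With the replicate block by number, Gas6 in p.284R against p.254I in M1 was at -0.42 (adjusted p = 0.294) and Marco in M1 against M0 was at 1.38. Over all settings the adjusted p of Pros1 in p.284R against p.254I in M1 ranged from 0.079 to 1, and that of Gas6 from 0.187 to 1.

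The M1 differences from M0 of members not called changed sign around 0. They also differed with the replicate number, as given for each above. Scarb1 ranged from -0.0106 to 0.0585 over single mice left out and was -0.0736 without the 3 mice numbered 2. Pros1 ranged from -0.0327 to 0.0917 over single mice left out, and was -0.0017 by limma-voom, -0.0015 with a random effect of the mouse and -0.117 without the 3 mice numbered 2. Mertk, 0.09 with all mice, was 0.293 (adjusted p = 0.0453) without the 3 mice numbered 2 and -0.0287 without the 3 mice that hold libraries standing apart. Over all genes, calls in p.284R against p.254I in M1 (34) became 64 by DESeq2, 64 with the replicate block, 11 by limma-voom, 7 with that random effect, 1 with only the libraries compared, 63 without the 3 mice numbered 2 and 0 without the 3 mice with libraries standing apart, and between 0 (without p.284R replicate 5) and 110 (without p.284R replicate 2) over single mice left out. Calls in p.284R against p.254V in M1 (10) ranged from 0 to 36 over the same settings and from 0 to 66 over single mice, and averaged calls (2) from 0 to 11 and from 2 to 18 for p.284R against p.254I. The cause of these shifts was not tested. With the mouse as random effect in limma-voom, genes with an unadjusted p under 0.05 numbered 220 for p.284R and 76 for p.254V against p.254I, averaged, in place of 565 and 323. Depth was 17239009 to 43740283 counts per library, and levels under 1 CPM (Cd163 in M1, Olr1 in M0) rest on few reads.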
